A study of Mus musculus with 12 samples.

Results

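Axons find their targets, and growing vessels their paths, through 4 families of guidance cues and the receptors that read them. Semaphorins signal mainly through plexins, slits through Robo receptors, netrins through Dcc, neogenin and Unc5 receptors, and ephrins through Eph receptor tyrosine kinases, with ligand and receptor both tied to cell membranes. In the developing retina these cues steer ganglion cell axons to the optic nerve and the brain and confine neurites to their layers. Several of them also act on endothelial cells, where plexin-D1 reads Sema3e and EphB4 marks veins opposite ephrin-B2 on arteries.

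The genes described here were picked by name from the table of 57073 gene models: the semaphorins of classes 3 to 7, the plexins, Slit1 to Slit3, Robo1 to Robo3, the netrins and netrin-Gs, Dcc, Neo1, Unc5a, Unc5c and Unc5d, the ephrins and the Eph receptors. The names matched 68 genes, and 65 of them had a mean of at least 10 counts over the libraries and were tested. Of the untested 3, Slit3 had 34 counts summed over the normoxic and 82 over the OIR libraries, Plxnb3 21 and 30, and Ntn5 12 and 13. Slit3, with a mean of 9.67 counts, lay just under the limit, and Ntn1, with 15, was the lowest gene above it. The name patterns leave out the endothelial receptors Unc5b and Robo4 and the neuropilins, which are given with the other pathway genes. The table's own pathway column assigns axon guidance to 64 of the 68, all but Plxnd1, Neo1, Ntn5 and Epha10.

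The libraries were made from poly-A RNA of the retina of C57BL/6 mice at postnatal day 17. There were 6 from animals kept in normoxic air and 6 from animals labelled with 75% oxygen, the oxygen-induced retinopathy (OIR) group, and all shared strain, tissue and age. In this model, high oxygen thins the capillaries of the pup retina, and the tissue turns hypoxic and forms abnormal vessels once back in room air. The labels do not say whether the libraries came from separate animals, so the p-values measure the spread between libraries, part of which may be technical.

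Libraries held 17361979 to 19390627 counts in the normoxic and 17366045 to 21594618 in the OIR group. Rod genes marked the tissue as retina: each of 8 was well counted, and the lowest, Pde6a, averaged 225 FPKM, a depth-scaled level per length of gene. Mitochondrial genes took 3.57 ± 0.324% of the counts in normoxic and 3 ± 0.16% in OIR libraries (exact permutation p = 0.00216, the smallest possible here; adjusted 0.00379), and their part in the results was not tested. Cell type markers moved with the groups. Summed FPKM of 13 endothelial genes was 69.5 to 86.5 in normoxic and 127 to 181 in OIR libraries, and that of 10 pericyte and smooth muscle genes 37.6 to 50.5 and 107 to 158. For 7 astrocyte genes it was 18.1 to 26.6 and 62.2 to 101, and for 12 microglia and macrophage genes 36.4 to 45 and 89 to 131. Amacrine, bipolar and ganglion cell markers went the other way. For 9 amacrine genes the sums were 143 to 174 in normoxic and 102 to 121 in OIR libraries. For 8 bipolar genes they were 417 to 474 and 324 to 360, and for 12 ganglion cell genes 327 to 463 and 251 to 343. Rods, also neurons, did not share this: their 8 genes summed to 9100 to 10100 in normoxic and 10200 to 11300 in OIR libraries. In whole tissue, fewer cells of a type and less RNA per cell cannot be told apart.

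**Figure D1:**
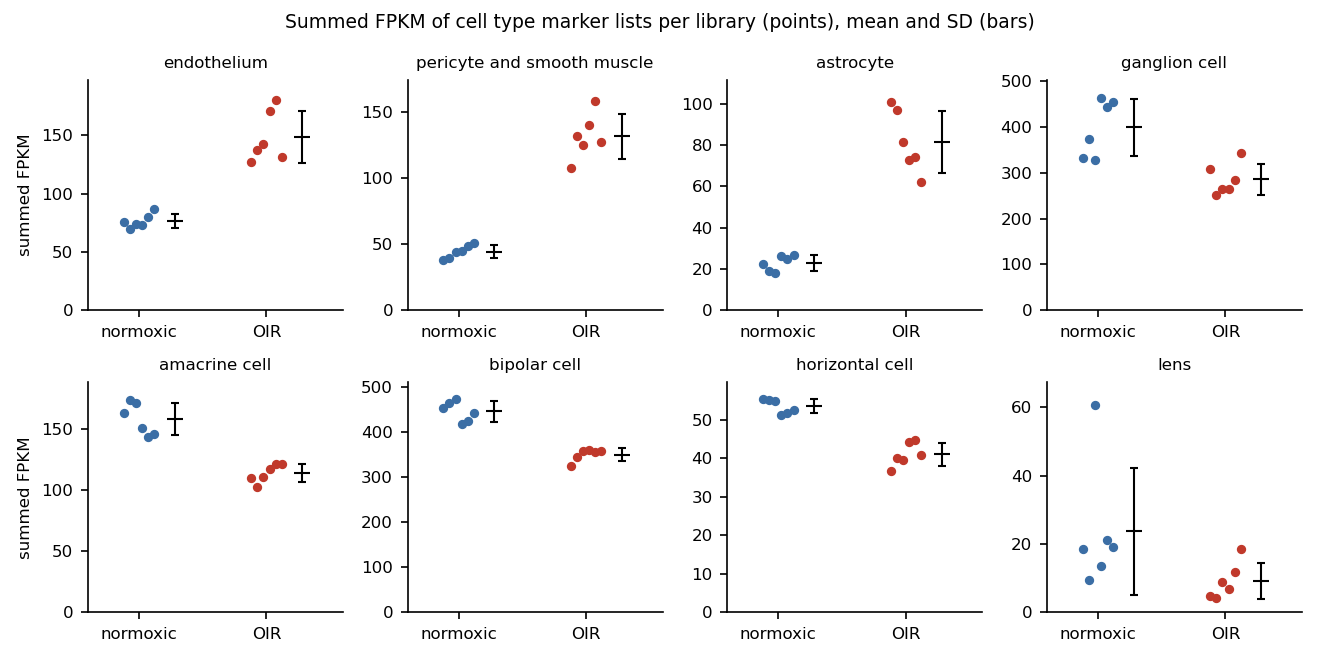
Summed FPKM (vertical axes, linear from 0) of 8 cell type marker lists in each of the 6 normoxic and 6 OIR libraries (points), with mean and SD (bars). Endothelial, pericyte and astrocyte lists lay higher in all OIR libraries, amacrine, bipolar and horizontal cell lists lower, and ganglion cell and lens lists overlapped.

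Of the 65 tested genes, 9 (13.8%) were higher and 26 (40%) lower in OIR by edgeR's quasi-likelihood test at an adjusted p of 0.05, and 30 did not pass. Among all 18336 genes tested the test called 31.1%, with 16.4% higher and 14.8% lower. The share called higher was thus near that of all genes, and the share called lower was above it. Guidance genes were counted more deeply than most: their mean counts had a median of 488, against 323 for all genes tested. The median log2 fold change was -0.11 over the tested guidance genes and -0.01 over all genes.

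The increases were few and large, and the decreases many and small. Changes of at least 2-fold passed in 7 genes, Robo3 and 6 that rose, beside 5.93% of all genes. The other 3 genes that rose did so by less than 1.5-fold. Of the 26 that fell, 23 did so by less than 1.5-fold, with log2 fold changes from -0.49 to -0.18, and Robo3, Sema3c and Epha6 fell further. Groups did not overlap in 21 genes, beside 16.1% of all genes: OIR was above in 7 (10.8%; 9.47% of all genes) and below in 14 (21.5%; 6.59% of all genes).

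**Figure D2:**
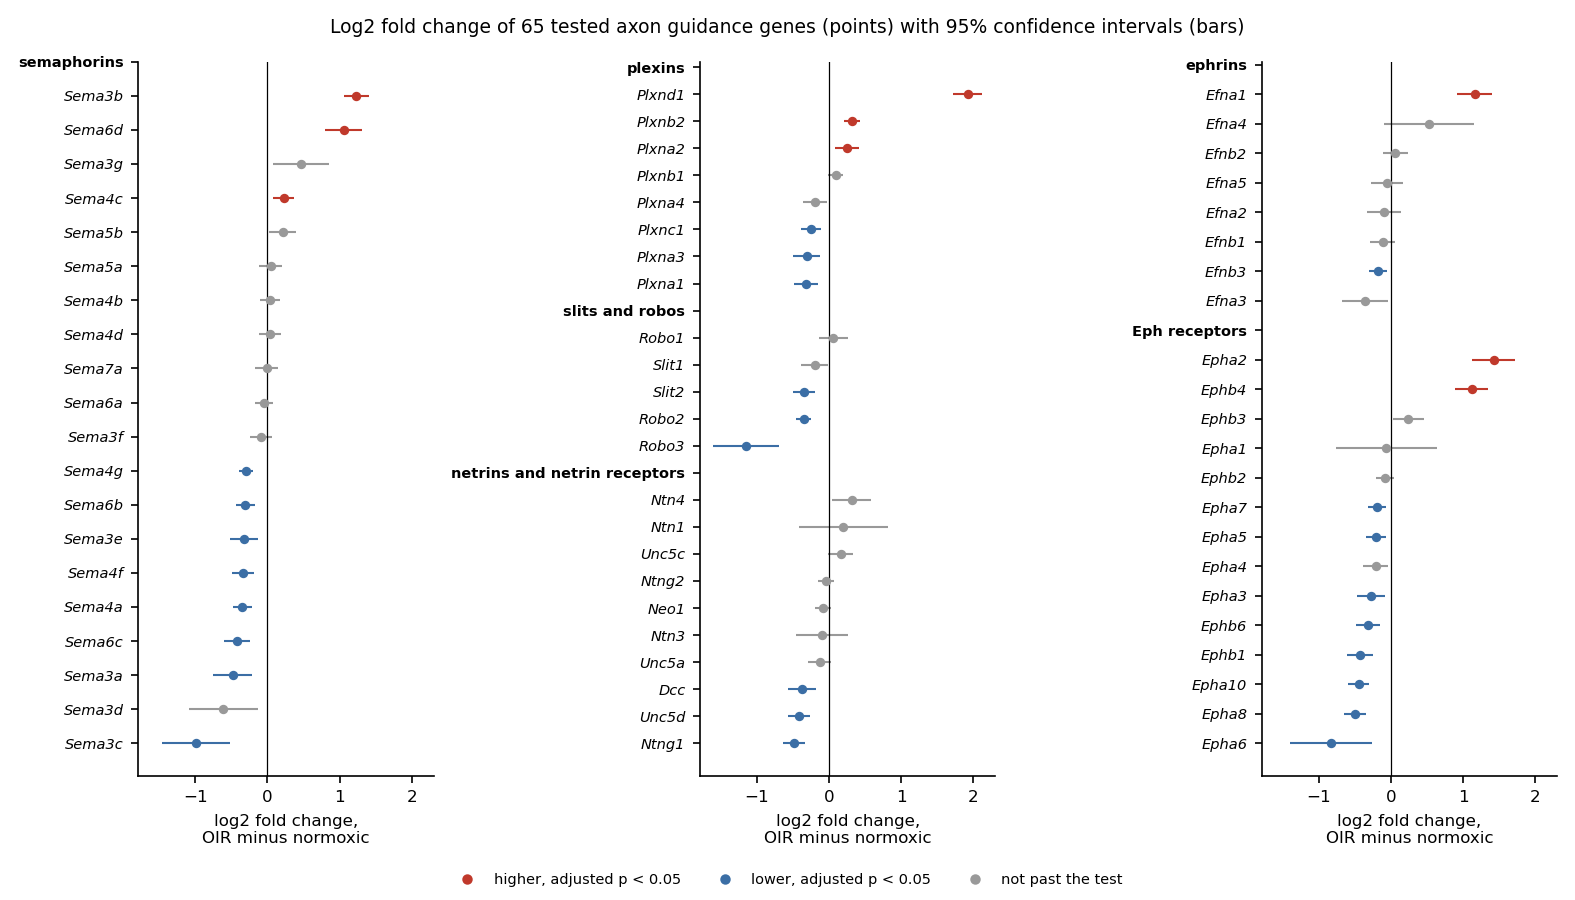
Log2 fold change of each tested gene, OIR minus normoxic (horizontal axes), by family, with 95% confidence intervals from the edgeR fit (bars). Points in red rose, points in blue fell and points in grey did not pass the test; Plxnd1 at 1.92 and Robo3 at -1.15 are the extremes.

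Among the semaphorins, 3 of 20 rose, 8 fell and 9 did not pass, with a median log2 fold change of -0.07. Sema3b and Sema6d rose more than 2-fold, while Sema3a, Sema3c and Sema3e, other secreted members of class 3, fell.

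Sema3b, a secreted repellent that acts through neuropilins (chromosome 9, 107474873 to 107486428 in build GRCm39), was at 9.43, 10.3 and 11.9 CPM (lowest, median and highest library; CPM are counts scaled to library totals and composition) in normoxic retina. In OIR retina it was at 21.8, 25.3 and 27 CPM. Every OIR library lay above every normoxic one. Means rose 2.35-fold, 10.6 ± 0.975 CPM becoming 24.8 ± 2.06 CPM (SD over 6 libraries), which is 1.23 ± 0.08 (SE) on the log2 scale (edgeR adjusted p = 3.71e-09).

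Sema6d, a transmembrane semaphorin that engages plexin-A1 (chromosome 2, 123931889 to 124509690), was at 9.27, 11.4 and 14.6 CPM in normoxic and 20.7, 23.8 and 30.7 CPM in OIR libraries, again without overlap. It rose 2.08-fold (log2 1.06 ± 0.12 SE, edgeR adjusted p = 2.82e-06). Sema4c, a transmembrane ligand of plexin-B2, rose only 1.17-fold (22.2 ± 1.62 to 26 ± 1.72 CPM, edgeR adjusted p = 0.0159), with groups that overlapped; a gene model on the opposite strand overlaps it with 5.06% as many counts.

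Sema3a, the prototype axon repellent, made in retina by ganglion cells among others, was at 8.13, 9.49 and 10 CPM in normoxic and 4.47, 6.89 and 7.86 CPM in OIR libraries. All OIR libraries lay below the normoxic ones, and the decrease was -0.48 ± 0.13 on the log2 scale (edgeR adjusted p = 0.00745). Sema3e, which binds plexin-D1 without a neuropilin, had a log2 fold change of -0.32 ± 0.09 (19.2 ± 1.83 to 15.4 ± 1.94 CPM, edgeR adjusted p = 0.0117). Its groups overlapped. Its receptor gene Plxnd1 moved in the opposite direction, as given below.

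Sema3c, a secreted semaphorin known from heart outflow tract development, had the lowest log2 fold change among semaphorins, -0.99 ± 0.22 (edgeR adjusted p = 0.00226). Its normoxic libraries were widely spread, at 2.57, 4.49 and 6.45 CPM, against 1.7, 2.38 and 2.73 CPM in OIR, and the groups overlapped. It was a weakly expressed gene, at 0.635 FPKM in normoxic retina.

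The remaining decreases among semaphorins were below 1.5-fold and came from classes 4 and 6. Sema6c, a transmembrane semaphorin, was at 47.3, 53.2 and 65.3 CPM in normoxic and 36, 40.5 and 47.1 CPM in OIR libraries, which all but touched (log2 -0.42 ± 0.08 SE, edgeR adjusted p = 8.39e-04). Sema4a, needed for photoreceptor survival in mice, fell from 30.1 ± 1.31 to 23.7 ± 2.02 CPM (adjusted p = 4.74e-04). Sema4f and Sema4g had log2 fold changes of -0.34 and -0.30 (adjusted p = 0.00212 and 1.27e-04), and in both the groups did not overlap. Sema6b, at -0.31 (adjusted p = 0.00128), overlapped through OIR replicate 6 alone, which lay at 41.1 CPM where the other OIR libraries reached 34.2.

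Semaphorins that did not pass included the family's most abundant. Sema3f, a secreted ligand of neuropilin-2, was at 46.9 ± 6.33 FPKM in normoxic and 43.8 ± 2.28 FPKM in OIR retina (log2 -0.09, 95% interval -0.24 to 0.06). Sema7a, a GPI-anchored ligand of plexin-C1, had 14.7 ± 1.21 and 14.5 ± 1.87 FPKM (log2 -0.01, interval -0.17 to 0.15). Sema5a and Sema5b, which keep inner retinal neurites in their layer, had log2 fold changes of 0.04 and 0.21 (adjusted p = 0.711 and 0.0786). For Sema6a and Sema4d they were -0.05 and 0.03, for Sema4b 0.04, for Sema3g 0.46 (adjusted p = 0.0631) and for Sema3d -0.61 (adjusted p = 0.0509). With a block for the sets of replicate numbers described below, Sema5b, Sema3g and Sema3d passed (adjusted p = 0.0132, 0.0377 and 0.0485).

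Plexins, the semaphorin receptors, rose in 3 of 8 tested members and fell in 3. Plxnd1 had the largest change of all guidance genes. This endothelial receptor of Sema3e (chromosome 6, 115931772 to 115971966) was at 12.3, 14.8 and 18.6 CPM in normoxic and 48.3, 56 and 65.5 CPM in OIR libraries, far apart. Its mean rose 3.79-fold, from 14.9 ± 2.31 to 56.5 ± 5.83 CPM (log2 1.92 ± 0.09 SE, edgeR adjusted p = 6.11e-11). Per length, it went from 2.04 ± 0.313 FPKM, a low level among plexins, to 7.71 ± 0.817 FPKM.

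Plxnb2, a widely expressed receptor of class 4 semaphorins, rose from 101 ± 8.35 to 127 ± 4.54 CPM (1.25-fold, edgeR adjusted p = 1.4e-04) without overlap. Plxna2, a receptor of Sema6a in retinal lamination, rose 1.19-fold with overlapping groups (adjusted p = 0.0203). Plxna1 and Plxna3, which read the class 5 semaphorins in retina, had log2 fold changes of -0.32 and -0.31 (adjusted p = 0.00483 and 0.0131). Plxnc1, the Sema7a receptor, fell from 23.9 ± 1.33 to 20 ± 1.38 CPM (log2 -0.25, adjusted p = 0.00707), and its groups did not overlap. Plxnb1 and Plxna4 did not pass, with log2 fold changes of 0.09 (interval -0.01 to 0.20) and -0.20 (interval -0.36 to -0.03).

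Of the 5 tested among Slit1 to Slit3 and Robo1 to Robo3, none rose and 3 fell, with a family median of -0.34 on the log2 scale. Slit2, a secreted repellent that channels ganglion cell axons in the retina and the main slit here at 5.78 FPKM, was at 136, 142 and 168 CPM in normoxic and 92, 118 and 127 CPM in OIR libraries. The groups were apart, with OIR replicate 5 lowest (log2 -0.34 ± 0.07 SE, edgeR adjusted p = 0.00122). Its receptor Robo2 (chromosome 16, 73688727 to 74208713) was at 63, 71 and 73 CPM in normoxic and 52.3, 54.2 and 56.9 CPM in OIR libraries, without overlap (log2 -0.35 ± 0.05 SE, adjusted p = 1.57e-05).

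Robo3, a divergent Robo receptor known from midline crossing, had the lowest fold change of the guidance genes, 0.452 of the normoxic level (log2 -1.15 ± 0.22 SE, edgeR adjusted p = 5.13e-04). It was at 2.47, 4.42 and 5.94 CPM in normoxic and 1.39, 1.95 and 3.04 CPM in OIR libraries, a low level with overlapping groups. Robo1 and Slit1 did not pass, at 0.06 (interval -0.14 to 0.26) and -0.20 (interval -0.38 to -0.01) on the log2 scale.

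Of the netrins, netrin-Gs, Dcc, Neo1, Unc5a, Unc5c and Unc5d, 10 were tested, of which none rose, 3 fell and 7 did not pass. Ntng1, a GPI-anchored netrin-G that binds a synaptic adhesion partner and not Dcc (chromosome 3, 109687356 to 110051327), was at 57.1, 64.7 and 71.7 CPM in normoxic and 40.2, 45.6 and 52.7 CPM in OIR libraries. The groups did not overlap, and the log2 fold change was -0.49 ± 0.07 (SE, edgeR adjusted p = 4.74e-05). Its relative Ntng2, the most abundant guidance gene per length, was at 62.3 ± 5.16 and 60.1 ± 2.05 FPKM and did not pass (log2 -0.04, interval -0.15 to 0.07). Reads of Ntng2 are less certain, since another gene model on its strand overlaps it and holds 11.7% as many counts.

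Dcc, the attractive netrin receptor that ganglion cell axons use to leave the eye (chromosome 18, 71386705 to 72484140), was at 18.1, 19.3 and 21.8 CPM in normoxic and 13.3, 14.7 and 19 CPM in OIR libraries. The groups overlapped narrowly (log2 -0.38 ± 0.09 SE, edgeR adjusted p = 0.00404). Unc5d, a repulsive netrin receptor that also binds FLRT proteins, fell from 31 ± 2.2 to 23.3 ± 2.27 CPM (log2 -0.41 ± 0.07 SE, adjusted p = 2.29e-04) without overlap. Unc5a, Unc5c and Neo1 did not pass, at -0.13, 0.16 and -0.09 on the log2 scale (adjusted p = 0.209, 0.157 and 0.216).

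Netrin ligands were scarce. Ntn1, the classical attractant of Dcc, had 84 counts in all normoxic and 96 in all OIR libraries, and its interval of -0.42 to 0.82 on the log2 scale was too wide to show a change of 1.5-fold. Ntn4, a basement membrane netrin that binds laminin, was at 8.79 ± 1.19 and 10.9 ± 2.06 CPM (log2 0.31, adjusted p = 0.0806). Ntn3 had a log2 fold change of -0.10, but its reads are uncertain, because Tbc1d24 overlaps it on the same strand at far higher counts.

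Ephrins were the family with the fewest calls, 1 higher and 1 lower of 8. Efna1, a GPI-anchored ligand of EphA2 that inflammatory cytokines induce in endothelium (chromosome 3, 89179040 to 89188449), was at 4.17, 4.85 and 5.94 CPM in normoxic and 9.2, 11.3 and 13.1 CPM in OIR libraries. All OIR libraries were higher, with a 2.24-fold rise (log2 1.16 ± 0.12 SE, edgeR adjusted p = 4.47e-07). Efna3 and Efna4 lie within 52248 bases of Efna1 on the same chromosome and did not pass, at -0.36 and 0.53 on the log2 scale (adjusted p = 0.0864 and 0.2).

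Efnb2, the arterial ephrin, was at 24.9, 27.2 and 32.6 CPM in normoxic and 24.6, 29.9 and 33.3 CPM in OIR libraries, which coincided. Its log2 fold change was 0.06, with a 95% interval of -0.11 to 0.24 (edgeR adjusted p = 0.615). Efnb3, a transmembrane ephrin of neurons, fell by 0.18 on the log2 scale (adjusted p = 0.0375), the smallest change called in the set. Efna2 and Efnb1 had log2 fold changes of -0.09 and -0.11, and Efna5, a graded cue in retinal mapping, had -0.05.

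Among the Eph receptors, 2 of 14 rose and 8 fell. Epha2, the main receptor of ephrin-A1, also expressed in lens epithelium (chromosome 4, 141028551 to 141056695), was at 2.74, 4.29 and 5.15 CPM in normoxic and 9.98, 10.9 and 13.7 CPM in OIR libraries. The groups stood well apart, at 2.69-fold (log2 1.43 ± 0.14 SE, edgeR adjusted p = 5.5e-07). Summed FPKM of 15 lens genes was 9.48 to 21.1 in 5 normoxic libraries, 60.7 in normoxic replicate 3 and 4.31 to 18.4 in OIR libraries. With lens level as a covariate the log2 fold change of Epha2 was 1.22, and the part of lens RNA in it was not tested.

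Ephb4, the venous receptor of ephrin-B2 (chromosome 5, 137348371 to 137376931), was at 5.28, 6.63 and 7.58 CPM in normoxic and 12.4, 14.2 and 17.4 CPM in OIR libraries. It rose 2.17-fold without overlap of the groups (log2 1.12 ± 0.11 SE, edgeR adjusted p = 3.49e-07). Zan on the opposite strand shares 33 bases with it and holds 257.5% as many counts, and the strand setting is not given. The arterial ligand gene Efnb2 was at 0.06 on the same scale, and the difference between Ephb4 and Efnb2 was not tested.

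The other Eph receptors that passed all fell. Epha8, known from guidance of midbrain commissural axons (chromosome 4, 136656730 to 136684127), was the most abundant Eph receptor per length, at 15.4 ± 1.76 FPKM in normoxic and 10.9 ± 0.696 FPKM in OIR retina. Its libraries were at 61.8, 73.1 and 81.6 CPM and 46.8, 50 and 56.2 CPM, with no overlap (log2 -0.49 ± 0.07 SE, edgeR adjusted p = 3.56e-05). Epha10, a receptor with an inactive kinase, was at 58.8, 70.1 and 80.2 CPM in normoxic and 49.4, 51.3 and 53.9 CPM in OIR libraries (log2 -0.44 ± 0.07 SE, adjusted p = 8.06e-05). The OIR libraries were again all lower, and closer together than the normoxic ones.

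Ephb1, which marks the ganglion cells whose axons stay uncrossed at the chiasm, was at 19.4, 22.1 and 24.3 CPM in normoxic and 13.8, 16.9 and 19.2 CPM in OIR libraries. The groups came close without overlapping (log2 -0.43 ± 0.09 SE, edgeR adjusted p = 8.75e-04). Ephb6, the other receptor with an inactive kinase, had a log2 fold change of -0.32 (29.4 ± 1.75 to 23.6 ± 2.7 CPM, adjusted p = 0.00394), without overlap. The retinal mapping receptors Epha3, Epha5 and Epha6 and the related Epha7 had log2 fold changes of -0.28, -0.20, -0.83 and -0.19 (adjusted p = 0.0297, 0.0274, 0.0258 and 0.0207). In each of these the groups overlapped. Epha5 shares 279 bases with the pseudogene Hmgn2-ps1 on the opposite strand, which holds 48.1% as many counts.

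Receptors that did not pass were Epha4 at -0.21 (interval -0.39 to -0.03), Ephb2 at -0.08 (interval -0.21 to 0.05) and Ephb3 at 0.25 (adjusted p = 0.0845) on the log2 scale. Epha1 had 103 and 100 counts summed over the groups and is uncertain besides, since Zyx overlaps it on the opposite strand at far higher counts and the strand setting is not given. Ephb2 neighbours Epha8 at a distance of 93431 bases.

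**Figure D3:**
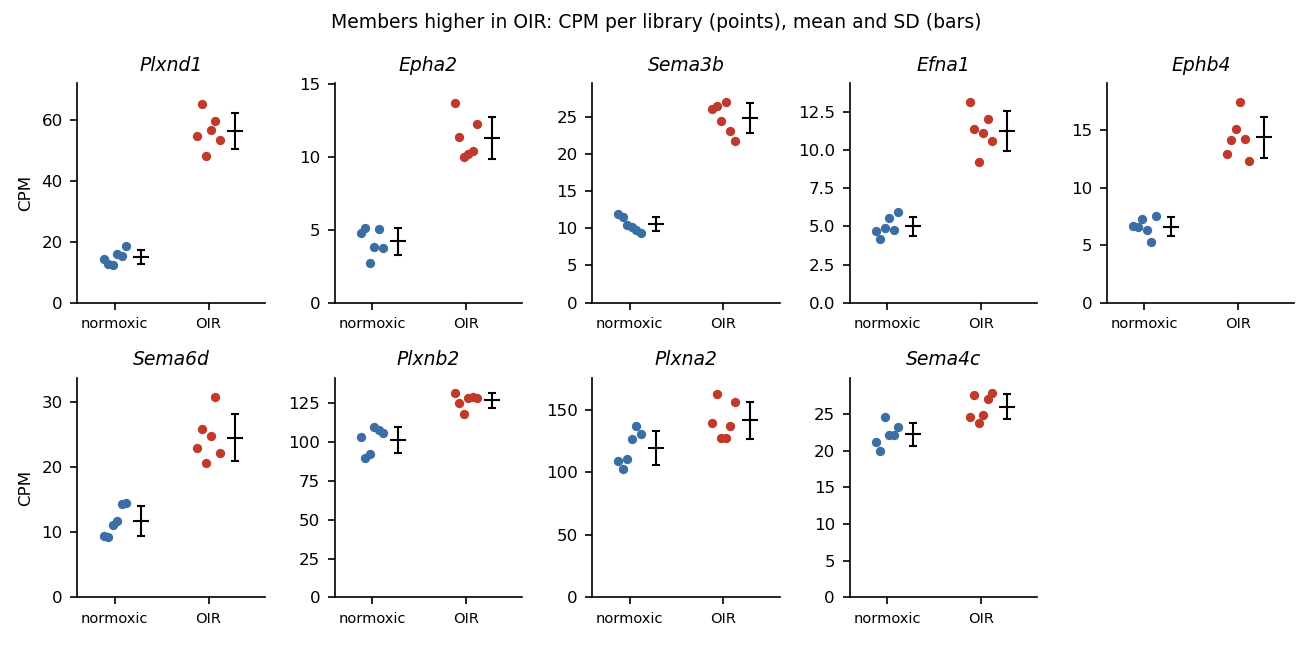
CPM (vertical axes, linear from 0) of the 9 guidance genes that rose, in each of the 6 normoxic and 6 OIR libraries (points), with mean and SD (bars). The groups do not overlap in the first 7 panels, from Plxnd1 to Plxnb2, and overlap in Plxna2 and Sema4c.

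The 6 genes that rose at least 2-fold, Plxnd1, Epha2, Sema3b, Efna1, Ephb4 and Sema6d, moved in the same direction as the endothelial, pericyte, astrocyte, microglia and red blood cell lists. Of 13 endothelial markers 12 rose and none fell, with a median log2 fold change of 1.29. Of the 9 tested pericyte and smooth muscle markers all rose, with a median of 1.31, and 6 of 7 astrocyte markers rose, with a median of 1.03. Of 12 microglia and macrophage markers 10 rose, with a median of 1.52, and the 4 tested red blood cell genes all rose, with a median of 0.91. The 6 guidance genes spanned 1.06 to 1.92 on the same scale. All endothelial markers were detected, the lowest being Erg at 0.939 FPKM. The part of vessel, glial, microglial or blood RNA in these guidance genes was not tested.

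The genes shown here were picked for rising at least 2-fold. The bases before their transcription starts are given because the retina turns hypoxic in this model. Tissue oxygen was not measured in these data, and a shared cause of the increases was not tested. RefSeq windows of build GRCm38.p6, the 250 bases before a start, were matched by symbol for 58 of the 68 genes, Sema3b not among them. Capitals mark ACGTG or GCGTG on either strand, the core letters of hypoxia response elements; all sequences run 5′ to 3′ on the strand of the gene. They lie at chr6:115995006-115995255 (minus strand) for Plxnd1, chr4:141300971-141301220 (plus) for Epha2, chr2:124089719-124089968 (plus) for Sema6d, chr5:137349859-137350108 (plus) for Ephb4 and chr3:89279646-89279895 (minus) for Efna1.
Plxnd1: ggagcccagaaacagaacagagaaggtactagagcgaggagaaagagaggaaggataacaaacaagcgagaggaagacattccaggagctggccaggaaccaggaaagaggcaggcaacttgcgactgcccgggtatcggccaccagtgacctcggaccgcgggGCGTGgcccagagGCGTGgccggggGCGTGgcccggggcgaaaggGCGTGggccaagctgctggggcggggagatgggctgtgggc
Epha2: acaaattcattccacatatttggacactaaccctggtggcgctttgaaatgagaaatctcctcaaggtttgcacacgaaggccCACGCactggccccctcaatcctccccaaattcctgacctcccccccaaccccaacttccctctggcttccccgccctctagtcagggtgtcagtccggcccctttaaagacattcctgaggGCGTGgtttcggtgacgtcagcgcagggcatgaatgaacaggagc
Sema6d: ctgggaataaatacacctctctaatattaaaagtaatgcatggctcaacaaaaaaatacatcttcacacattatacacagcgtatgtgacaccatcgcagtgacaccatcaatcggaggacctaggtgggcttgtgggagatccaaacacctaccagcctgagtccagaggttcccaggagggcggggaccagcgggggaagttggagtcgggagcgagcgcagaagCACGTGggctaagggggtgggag
Ephb4: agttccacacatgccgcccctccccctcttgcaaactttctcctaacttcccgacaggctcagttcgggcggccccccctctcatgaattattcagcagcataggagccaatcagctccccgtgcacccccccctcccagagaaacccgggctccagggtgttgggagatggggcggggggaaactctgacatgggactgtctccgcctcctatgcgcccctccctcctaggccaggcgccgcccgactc
Efna1: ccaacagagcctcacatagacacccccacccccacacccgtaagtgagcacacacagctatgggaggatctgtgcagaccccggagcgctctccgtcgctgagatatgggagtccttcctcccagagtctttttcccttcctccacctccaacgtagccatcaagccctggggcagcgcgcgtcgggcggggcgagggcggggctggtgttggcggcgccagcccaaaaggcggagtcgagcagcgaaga

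The Plxnd1 window held 4 such matches, all GCGTG and close together, and the Epha2 window 2. In the Sema6d window a single CACGTG run reads as a match on either strand, and the second windows of Sema6d and Efna1 held none. The letters were absent from the Ephb4 and Efna1 windows shown. Over all guidance genes, 30 of 74 windows (40.5%) held a match, against 38.6% of the 32851 windows of all genes. By gene, it was 5 of the 8 matched genes that rose and 10 of the 22 that fell, beside 41.5% of all genes in the table. By window, it was 5 of 12 and 10 of 30. A match is a description of the letters and not of binding.

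**Figure D4:**
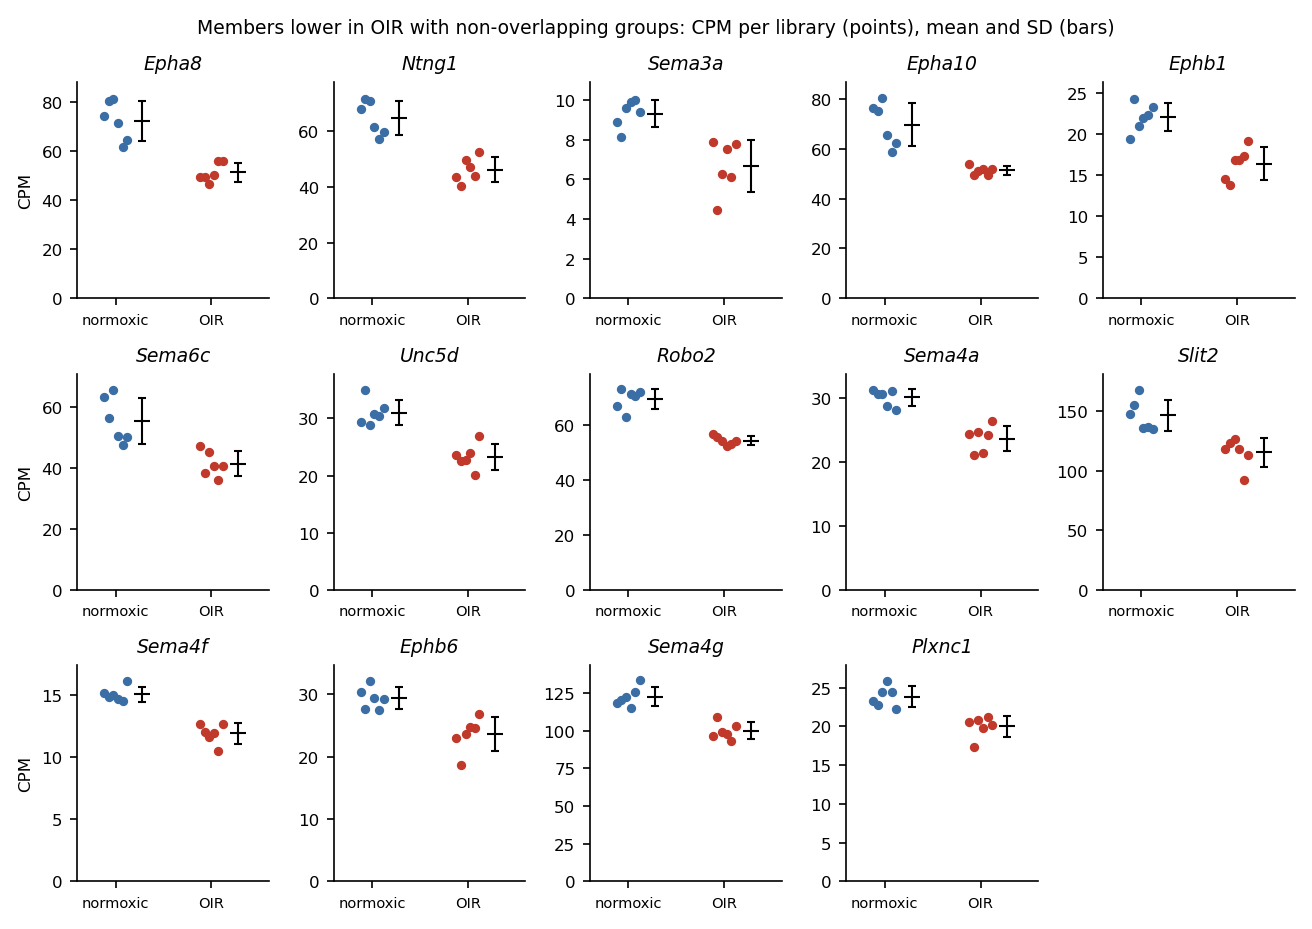
CPM (vertical axes, linear from 0) of the 14 guidance genes that fell with groups that did not overlap, in each library (points), with mean and SD (bars). In every panel all OIR points lie below all normoxic ones, with log2 fold changes from -0.49 (Epha8) to -0.25 (Plxnc1).

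Genes that fell moved in the same direction as the amacrine, bipolar, ganglion cell, horizontal cell and lens lists. Of 9 amacrine markers all fell, with a median log2 fold change of -0.43, as did 7 of 8 bipolar markers (-0.32) and 8 of 12 ganglion cell markers (-0.49). Of the 4 tested horizontal cell markers 2 fell (-0.29), and of the 14 tested lens markers 7 fell (-1.67). No marker of these lists rose. The 23 guidance genes that fell by less than 1.5-fold spanned -0.49 to -0.18 on this scale. The part of neuron number or lens RNA in them was not tested. Of the rod markers, 3 of 8 rose and 1 fell, with a median of 0.15.

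Of the 30 genes that did not pass, 23 had a 95% interval that lay within 1.5-fold in either direction. The other 7, Sema3d, Sema3g, Ntn1, Ntn4, Efna3, Efna4 and Epha1, had wider ones, and most of these were weakly expressed.

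Summed over a family, plexins totalled 408 to 473 CPM in normoxic and 495 to 548 in OIR libraries, without overlap. Slits and Robos totalled 240 to 265 and 173 to 215 CPM, and Eph receptors 379 to 413 and 324 to 354 CPM, likewise apart but lower in OIR. Sums of the semaphorins (818 to 894 and 792 to 829 CPM), the netrins with their receptors (510 to 582 and 476 to 524 CPM) and the ephrins (108 to 121 and 104 to 122 CPM) overlapped. The separation of the plexin sums depended on Plxnd1. Without it the libraries were at 395.5 to 457.6 CPM in normoxic and 446.2 to 482.7 CPM in OIR retina, which overlapped. Plxnd1 was not the only plexin that added to the sum, since Plxnb2 and Plxna2 also rose, while Plxna1, Plxna3 and Plxnc1 fell.

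Other genes of the pathway, co-receptors, adhesion partners and cytoplasmic effectors, were counted beside them. Of 103 tested, 34 (33%) rose and 28 (27.2%) fell, beside 16.4% and 14.8% of all genes. Their median log2 fold change was 0.02. The list was chosen with earlier results of these data known. Robo4, the endothelial Robo receptor, rose 2.93-fold, from 4.5 to 8.17 CPM in normoxic to 16.2 to 24.4 CPM in OIR libraries (edgeR adjusted p = 1.08e-07). Unc5b, the endothelial Unc5 receptor, rose 2.37-fold (12.6 to 14.8 against 26.9 to 40 CPM, adjusted p = 1.08e-08). Of their relatives, Robo2, Robo3 and Unc5d fell, and Robo1, Unc5a and Unc5c did not pass, at 0.06, -0.13 and 0.16 on the log2 scale.

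The 8 further genes with the smallest adjusted p were Rras, Sdcbp, Itgb1, Vasp, Dag1 and Bsg, which rose, and Dpysl4 and L1cam, which fell. Rras, a small GTPase that plexins inactivate, rose 2.4-fold (edgeR adjusted p = 4.33e-09), and the integrin subunit gene Itgb1 1.98-fold. Sdcbp, whose product syntenin binds ephrin-B tails, rose 1.63-fold, the actin regulator gene Vasp 1.79-fold, the slit-binding dystroglycan gene Dag1 1.44-fold and Bsg 1.32-fold. Dpysl4, of the collapsin response mediators, and L1cam, an axonal adhesion molecule, had log2 fold changes of -0.40 and -0.54. In all 10, picked for the smallest adjusted p, the groups did not overlap. Over the tested genes of the list, OIR lay above in 21 (20.4%) and below in 14 (13.6%), beside 9.47% and 6.59% of all genes. The co-receptors of class 3 semaphorins, named after their values were seen, rose as well: Nrp1 1.88-fold (4.01 to 5.72 against 7.68 to 11.2 CPM, edgeR adjusted p = 2.44e-05) and Nrp2 1.26-fold (13 to 16.9 against 17.2 to 21.6 CPM, adjusted p = 0.00417).

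The replicate numbers fall into 2 sets in these data, 1 to 3 and 4 to 6, and the normoxic libraries differ between them, so each gene was also compared within the sets. Within numbers 1 to 3 the test called 37 guidance genes, beside 39.1% of all genes, and within 4 to 6 it called 26, beside 20.2%. All 35 guidance genes that passed kept their sign within both. They were called on these same libraries pooled, so this is largely set by the selection and is no separate support. The change itself differed between the sets (interaction term in edgeR, adjusted p under 0.05) in 7 of 65 guidance genes, beside 8.15% of all genes. For Sema3f the log2 fold change was -0.26 within numbers 1 to 3 and 0.11 within 4 to 6 (interaction adjusted p = 0.00246), and for Ntng2 -0.18 and 0.11 (0.00742). Both were lower in normoxic replicates 4 to 6 (210 to 219 CPM for Sema3f, 223 to 239 CPM for Ntng2) than in 1 to 3 (264 to 279 and 264 to 271 CPM). Marker lists parted along the same sets in normoxic libraries. Summed FPKM of the pigment epithelium list was 6.43 to 8.3 in normoxic replicates 1 to 3 and 60.7 to 70 in 4 to 6, that of the red blood cell list 125 to 169 and 70 to 73.9, and that of the ganglion cell list 327 to 374 and 444 to 463. In OIR libraries the pigment epithelium list parted too, at 31.6 to 37 in replicates 1 to 3 and 44.2 to 64.3 in 4 to 6. There the red blood cell list was at 226 to 300 and 141 to 222, and the ganglion cell list overlapped at 251 to 309 and 264 to 343. The part of these lists in the differences between sets was not tested.

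Sema4d (-0.15 and 0.23, interaction adjusted p = 0.0265) and Unc5c (0.36 and 0.00, 0.0466) also differed between the sets, and neither passed in the whole comparison. Epha8, Epha10 and Ntng1 fell within both sets, but by more within 1 to 3 (-0.69, -0.58 and -0.65) than within 4 to 6 (-0.29, -0.28 and -0.31; interaction adjusted p = 0.00908, 0.0318 and 0.0481). In normoxic replicates 1 to 3 these receptors and the netrin-G lay above normoxic replicates 4 to 6, Epha8 at 74.5 to 81.6 against 61.8 to 71.7 CPM. None of the 6 increases of at least 2-fold passed the interaction test, which does not show that their changes were equal. Plxnd1 was at 2.10 and 1.76 (interaction adjusted p = 0.169), Sema6d at 1.22 and 0.93 (0.37) and Efna1 at 1.29 and 1.05 (0.579). Epha2 was at 1.46 and 1.39 (0.91), Sema3b at 1.19 and 1.29 (0.731) and Ephb4 at 1.05 and 1.20 (0.721). Normoxic libraries of Plxnd1 parted as well, at 12.35 to 14.27 CPM in replicates 1 to 3 and 15.39 to 18.58 CPM in 4 to 6.

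**Figure D5:**
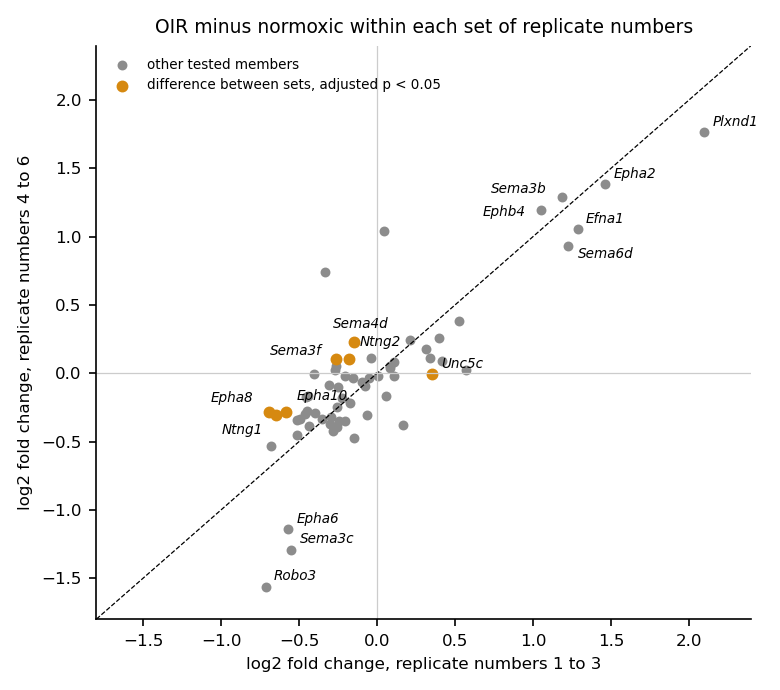
Log2 fold change of each tested guidance gene within replicate numbers 1 to 3 (horizontal) and within 4 to 6 (vertical), OIR minus normoxic; the dashed line marks equality. The 7 genes in orange had a change that differed between the sets at an adjusted p under 0.05.

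In 6 of the 35 genes the call was lost in at least 1 fit that left out a library. Such fits hold fewer libraries, so a lost call does not show that it rested on the library left out. Efnb3 was lost without normoxic replicate 1, 2, 3 or 5 or OIR replicate 1, 3 or 5 (adjusted p = 0.072, 0.076, 0.0661, 0.0615, 0.0901, 0.0618 and 0.0726). Epha3 was lost without normoxic replicate 5 or OIR replicate 3, 4 or 5 (0.0743, 0.0733, 0.0561 and 0.0534), and Epha5 without normoxic replicate 5 or OIR replicate 1 or 3 (0.0638, 0.0689 and 0.0646). Epha6 was lost without normoxic replicate 2 or OIR replicate 3 or 5 (0.0644, 0.0593 and 0.0559), and Epha7 without normoxic replicate 5 (0.0523). Plxna2 was lost without normoxic replicate 1 or 2 or OIR replicate 2 (0.0511, 0.0512 and 0.057). All p-values here are edgeR's adjusted ones.

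Conversely, 8 genes that had not passed did so when a library was left out. Sema3d passed without OIR replicate 3 or 6 (adjusted p = 0.0489 and 0.0222), Sema3g without normoxic replicate 3 or OIR replicate 6 (0.0428 and 0.0205), and Sema5b without normoxic replicate 5 or 6 or OIR replicate 3 (0.0444, 0.0269 and 0.0414). Plxna4 passed without normoxic replicate 5 or OIR replicate 3 (0.0477 and 0.0425), Slit1 without normoxic replicate 4 (0.0304) and Ntn4 without OIR replicate 4 or 6 (0.0267 and 0.0438). Efna3 passed without OIR replicate 6 (0.0192) and Epha4 without normoxic replicate 5 (0.0209).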

How the data were processed

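The authors deposited 1 table with raw counts per gene and FPKM beside them for the 12 retina libraries, per the file headers. Trimmomatic, HISAT2 2.0.5, HTSeq and build GRCm39 appear in the submitters' processing notes, without roles. Neither annotation nor strand setting is given in the sources used here, so reads of overlapping genes may be shared. Groups came from the sample titles. The genes described and the gene lists were chosen with earlier results of these data known.

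Counts of genes with a mean of at least 10 over the libraries were tested with edgeR 4.0.16 (R 4.3.3; TMM scaling, quasi-likelihood test), with p-values adjusted by Benjamini-Hochberg over 18336 genes and a threshold of 0.05. The SE is the log2 fold change divided by the square root of F. CPM use the TMM-scaled totals. Marker list levels (mean log2(FPKM + 1)) and the mitochondrial share were compared by exact two-sided permutation tests, adjusted over 14. Named genes were all that passed, the 2 most abundant of each family that did not, and a fixed set of well-known members; the values of 12 with the largest changes at 1 FPKM or more are given in full. Genes past the top 30 by adjusted p, and others that did not pass, were named to account for every gene.

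Alternatives were other filters, scalings and dispersions, DESeq2 1.42.0, limma 3.58.1 on log2 FPKM, a replicate block, a lens covariate, sets of replicate numbers and leaving out each library. The interaction with the sets was added after seeing the data. The test of OIR against normoxic was tested on simulated counts of the 18336 genes. It found 36% of those set to change 1.25-fold and 68% of those set to 1.5-fold. It found 86% of those set to 2-fold and 96% of those set to 4-fold, and it made 7 false calls. Far fewer genes were set to change than the 31.1% called in the data. The adjusted threshold was therefore stricter in the simulation, and these shares can understate what the test finds in the data. Pairs of libraries within a group differed by 3.05 to 15.4 chi-square per degree of freedom, so none was merged.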

Additional observations from a re-analysis of the deposited data

Results flagged for a closer look

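In 5 of 130 sets of 6 libraries (65 genes in 2 groups), the highest or lowest library stood apart from the rest by Dixon's criterion, which chance alone meets in about 1 of 20. Sema6b was at 41.1 CPM in OIR replicate 6, where the next library was at 34.2. Plxnc1 was at 17.4 CPM in OIR replicate 2 (next 19.8), and Slit2 at 92 CPM in OIR replicate 5 (next 114). Ntn1 was at 1.46 CPM in normoxic replicate 2 (next 0.697), a gene of few counts. Epha3 was at 14.6 CPM in normoxic replicate 5 (next 12.5), and its call was lost without that library (edgeR adjusted p = 0.0743).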

How the results depend on the processing

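The number of guidance genes called stayed at 8 to 12 higher and 18 to 28 lower under every alternative run, and no called gene changed sign. Of the 35 calls, 18 held in every alternative, among them the 6 increases of at least 2-fold. With lens level as a covariate, which differed between the groups itself, Sema3a (adjusted p = 0.107), Plxna2, Plxna3, Plxnc1, Efnb3, Epha3, Epha5 and Ephb6 were lost. The other pathway genes called lower went from 28 to 18 with it; the cause was not tested. Within replicate numbers 1 to 3 alone 8 calls were lost and within 4 to 6 alone 10, with fewer libraries. Sema3d passed under the 3 other scalings (adjusted p = 0.0472 to 0.0493), none of which moved the median of all genes by more than 0.01. Same-numbered libraries of the groups correlated at -0.03 to 0.14 in their deviations, and only numbers 3 and 5 correlated best with their own number, so the numbers do not pair them; with a replicate block 10 guidance genes were higher and 26 lower, and Efnb3 was lost (0.0686). A block for the sets 1 to 3 and 4 to 6 lost no call and gained 3 (Sema3d, Sema3g and Sema5b), for 11 higher and 27 lower. DESeq2 called 10 higher and 27 lower.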
